A study of Mus musculus with 6 samples.

Results

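Mural cells, the pericytes and smooth muscle cells that wrap blood vessels, and the smooth muscle of the arrector pili were looked for among the CD45-negative cells of mouse skin. A barcode was taken as a member when it held 500 or more unique molecular identifiers (UMIs, each a counted RNA molecule) from 300 or more genes, with no more than 10% of them mitochondrial, at least 4 UMIs summed over Rgs5, Myh11, Des, Notch3 and Abcc9, no Pecam1 or Cdh5 UMI, and less than 0.5% of its UMIs from Krt5 and Krt14. This gave 456 barcodes of the 23796 that passed the filter on UMIs, genes and mitochondrial share, and of 48101 deposited in all. The members were chosen on measured values of these 5 genes, so their levels are given as a description only.

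The study profiled whole skin, stripped of its hypodermis, from untreated female mice of 17 to 18 weeks by droplet single-cell RNA sequencing from the 5′ end of transcripts, after sorting live cells into CD45-positive and CD45-negative fractions. The groups were mice lacking an upstream enhancer of Il2ra (UP_Del) that showed alopecia, UP_Del mice that showed none, and wild-type (WT) mice. All samples carry the strain label C57/BL6, and both UP_Del groups share the deletion, so alopecia against no alopecia is a comparison within the deletion. Each group gave 1 CD45-negative library, and the number of mice behind it is not given in the sources used here. No spread between mice can be given, every interval below covers counting error only, and the group cannot be told apart from the library. Both UP_Del libraries were set against the same WT library.

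Pericytes sit in the basement membrane of capillaries and regulate their flow and permeability, and vascular smooth muscle cells form the contractile wall of arterioles and larger vessels. The arrector pili is a strip of smooth muscle, under adrenergic control, that runs to the bulge of the hair follicle and raises the hair. Rgs5, a regulator of G-protein signalling, and Abcc9, the sulfonylurea receptor of an ATP-sensitive potassium channel, are typical of pericytes, Myh11 is the smooth muscle myosin heavy chain, Des is the intermediate filament desmin, and Notch3 is the Notch receptor of vascular mural cells, though Notch receptors are also made by keratinocytes.

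The alopecia, no-alopecia and WT CD45-negative libraries held 7123, 16751 and 4575 barcodes, of which the filter kept 4958, 15484 and 3354. It removed 30.4%, 7.56% and 26.7% of the barcodes, mostly at the mitochondrial limit, so shares of kept barcodes rest on unequal losses. The kept barcodes had medians of 5730, 5719 and 5012.5 UMIs. The libraries had few barcode sequences in common, with 149 shared by the alopecia and no-alopecia libraries, 48 by alopecia and WT, and 117 by no alopecia and WT, and no shared barcode was a member in both. In the member barcodes outside the tied group described next, Il2ra had 2 UMIs in alopecia, 5 in no alopecia and none in WT, and its RNA does not read the deleted enhancer.

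The label did not hold for all members. Members were split by whether the sum of Rgs5 and Abcc9 UMIs was above the sum of Myh11 and Des UMIs (the Rgs5/Abcc9 side), below it (the Myh11/Des side) or equal to it (tied). The alopecia members fell into 10 Rgs5/Abcc9 barcodes, 46 Myh11/Des barcodes and 71 tied barcodes. The no-alopecia members fell into 75, 87 and 56 in the same order, and the WT members into 8, 43 and 60. Of the tied barcodes, 68 in alopecia, 47 in no alopecia and 59 in WT had at least 4 Notch3 UMIs and none from the other rule genes. At least 3 UMIs of the contractile genes Acta2 and Tagln were found in none of the 71 alopecia and none of the 60 WT tied barcodes, and in 6 of the 56 in no alopecia. Their 9 keratinocyte markers summed to 18605 CPM (the UMIs of a gene or list scaled to a set total of 1000000) in alopecia, 24453 CPM in no alopecia and 21343 CPM in WT, and their 9 smooth muscle markers to 25 CPM in alopecia, 444 CPM in no alopecia and 39 CPM in WT. The smooth muscle markers include the rule genes Myh11 and Des. By ratio to the other kept barcodes they were led by Slc35f3, Ido1 and Prr9 in alopecia, by Prr9, Cox4i2 and Dkkl1 in no alopecia, and by the hair keratin and keratin-associated genes Krtap7-1, Krt31 and Krt36 in WT. Keratin genes were also among the first 12 genes in alopecia (Krt8, Krt75 and Krt19) and no alopecia (Krt71). The mural genes Cox4i2 and Rgs5 were among the first 12 in no alopecia, where 9 of the 56 tied barcodes held other rule genes than Notch3 and 4 of these had at least 3 Acta2 and Tagln UMIs. They are called tied barcodes here, and as a set they are not treated as mural cells.

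**Figure D1:**
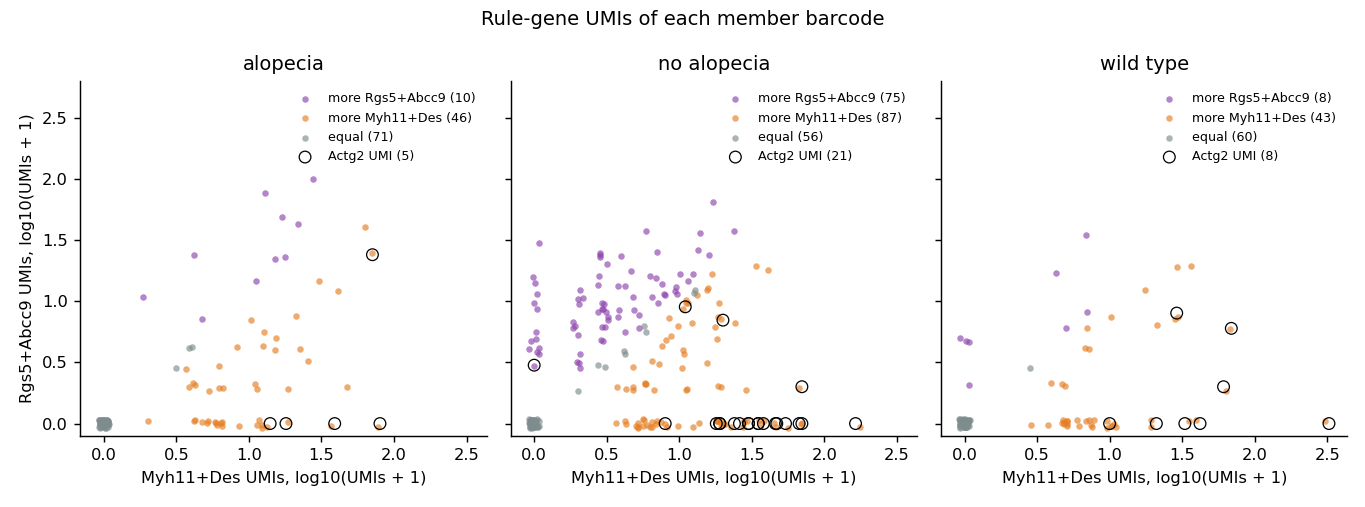
Rule-gene UMIs of each member barcode, on log10(UMIs + 1) axes with Myh11 plus Des across and Rgs5 plus Abcc9 up, for the alopecia, no-alopecia and WT libraries from left to right. Colours give the side, numbers in the legend count barcodes, rings mark barcodes with an Actg2 UMI, and points are spread slightly so that equal values can be seen; most tied barcodes sit at the origin, and the 75 Rgs5/Abcc9 barcodes of no alopecia outnumber the 10 of alopecia and the 8 of WT.

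The Myh11/Des side itself held barcodes of 2 kinds. With at least 1 Myh11 UMI there were 27 in alopecia, 72 in no alopecia and 19 in WT, and at least 3 Acta2 and Tagln UMIs were seen in 24 of them in alopecia (88.9%), 65 in no alopecia (90.3%) and 18 in WT (94.7%). Their smooth muscle markers summed to 20291 CPM in alopecia, 28081 CPM in no alopecia and 31120 CPM in WT, against 117, 83 and 83 CPM in the kept barcodes of the alopecia, no-alopecia and WT libraries that were not members. This list includes the rule genes Myh11 and Des, and Myh11 alone gave 3163 CPM in alopecia, 3817 CPM in no alopecia and 4880 CPM in WT. Acta2, which is not a rule gene, gave 7550 CPM in alopecia, 9533 CPM in no alopecia and 11447 CPM in WT. In the kept barcodes that were not members Acta2 had 14.3 CPM in alopecia, 14.7 CPM in no alopecia and 7.53 CPM in WT. Without Myh11, 19 alopecia, 15 no-alopecia and 24 WT barcodes were members through Des. These carried the fibroblast markers at 30281 CPM in alopecia, 39992 CPM in no alopecia and 27015 CPM in WT. At least 20 UMIs of the collagen gene Col1a1 and the proteoglycan genes Dcn and Lum were seen in 12 of them in alopecia, 10 in no alopecia and 19 in WT. Pax7 or Myod1, transcription factors of skeletal muscle precursors, had a UMI in 5 of the alopecia and 4 of the WT barcodes and in none of the 15 from no alopecia. Barcodes with Des and no Myh11 therefore went against the label as well, and no cell type is given to them.

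**Figure D2:**
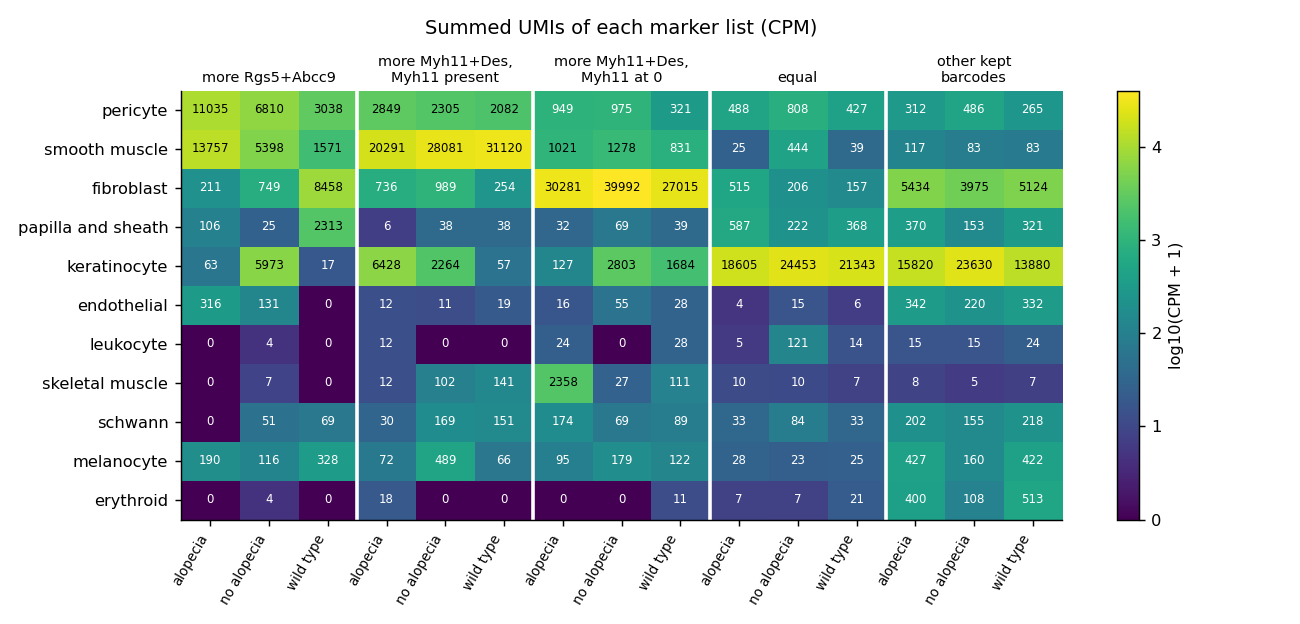
Summed UMIs of each marker list, in CPM printed in each cell and coloured as log10(CPM + 1), for the alopecia, no-alopecia and WT libraries within each set of member barcodes and in the other kept barcodes. The smooth muscle list reads 20291, 28081 and 31120 CPM where Myh11 is present and 25, 444 and 39 CPM in the tied barcodes, where the keratinocyte list is high. The pericyte and smooth muscle lists include rule genes.

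Barcodes of the Rgs5/Abcc9 side were most frequent in the skin of UP_Del mice without alopecia, while Myh11-positive barcodes took a similar share of each library. The Rgs5/Abcc9 side made up 0.202% of kept barcodes in alopecia (95% Clopper-Pearson interval 0.0968 to 0.371), 0.484% in no alopecia (0.381 to 0.607) and 0.239% in WT (0.103 to 0.469). Alopecia over no alopecia was 0.416 (exact conditional binomial 95% interval 0.192 to 0.809), alopecia over WT 0.846 (0.300 to 2.47) and no alopecia over WT 2.03 (0.979 to 4.88). The interval of the alopecia ratio to no alopecia stayed below 1, and both intervals against WT contained 1. With barcodes thinned to 1000 UMIs and at least 2 rule-gene UMIs asked for, alopecia over no alopecia was 0.616 (0.312 to 1.13), an interval that contained 1. Myh11-positive barcodes made up 0.545% in alopecia, 0.465% in no alopecia and 0.566% in WT. The ratios were 1.17 (0.723 to 1.85) for alopecia over no alopecia, 0.961 (0.515 to 1.83) for alopecia over WT and 0.821 (0.490 to 1.44) for no alopecia over WT, so no difference was detectable at these counts and differences of up to the bounds remain possible. The whole Myh11/Des side made up 0.928% in alopecia, 0.562% in no alopecia and 1.28% in WT, with ratios of 1.65 (1.13 to 2.39) for alopecia over no alopecia and 0.438 (0.301 to 0.647) for no alopecia over WT, which included its barcodes without Myh11. With at least 4 UMIs of Rgs5 and Myh11 alone, these ratios were 1.12 (0.671 to 1.81) and 0.854 (0.496 to 1.55), and both intervals contained 1.

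The same order was seen against endothelial barcodes, the other cells of the vessel wall, which were taken as barcodes with at least 2 UMIs of Pecam1 and Cdh5 (388 in alopecia, 923 in no alopecia and 261 in WT). For every 100 endothelial barcodes there were 2.58 Rgs5/Abcc9 barcodes in alopecia, 8.13 in no alopecia and 3.07 in WT. Alopecia over no alopecia was 0.317 (0.146 to 0.616) and no alopecia over WT 2.65 (1.28 to 6.36). A sort and digestion stand between these shares and the tissue, and how many of each cell type they recover was not tested.

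The sets that went against the label moved the total. Taken whole, members were 2.56% of kept barcodes in alopecia, 1.41% in no alopecia and 3.31% in WT, a ratio of alopecia to no alopecia of 1.82 (1.45 to 2.27). The tied barcodes alone had a ratio of 3.96 (2.75 to 5.72), and the Des barcodes without Myh11 a ratio of 3.96 (1.90 to 8.37). Without the tied barcodes the ratio was 1.08 (0.782 to 1.47). Leaving out every barcode with at least 20 keratinocyte or fibroblast marker UMIs gave 0.937, on the other side of 1, so the higher share of members in alopecia was not seen without barcodes rich in other cells' markers. A rule on Rgs5 and Myh11 alone, with at least 4 UMIs, kept 34 members in alopecia, 132 in no alopecia and 21 in WT, and gave 0.804 (0.535 to 1.18). Of 7363 genes compared, 807 (11.0%) differed by at least 2-fold between alopecia and no alopecia over all members, 320 higher (4.35%) and 487 lower (6.61%), led upwards by the keratin genes Krt73 (no UMI in no alopecia, log2 ratio at least 7.15), Krt35 (7.56) and Krt8, of whose alopecia UMIs 1 barcode held 99.6%. Downwards they were led by Tfpi2, a protease inhibitor (−5.71), Kcnj8 (−5.38) and Enpp2 (−4.04). Against WT, 307 of 7331 genes (4.19%) differed for alopecia and 819 of 7368 (11.1%) for no alopecia, 519 higher (7.04%) and 300 lower (4.07%). Barcodes just inside the rule, with exactly 4 rule-gene UMIs, numbered 41 in alopecia, 52 in no alopecia and 45 in WT, and those just outside, with 3, numbered 146 in alopecia, 149 in no alopecia and 85 in WT.

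**Figure D3:**
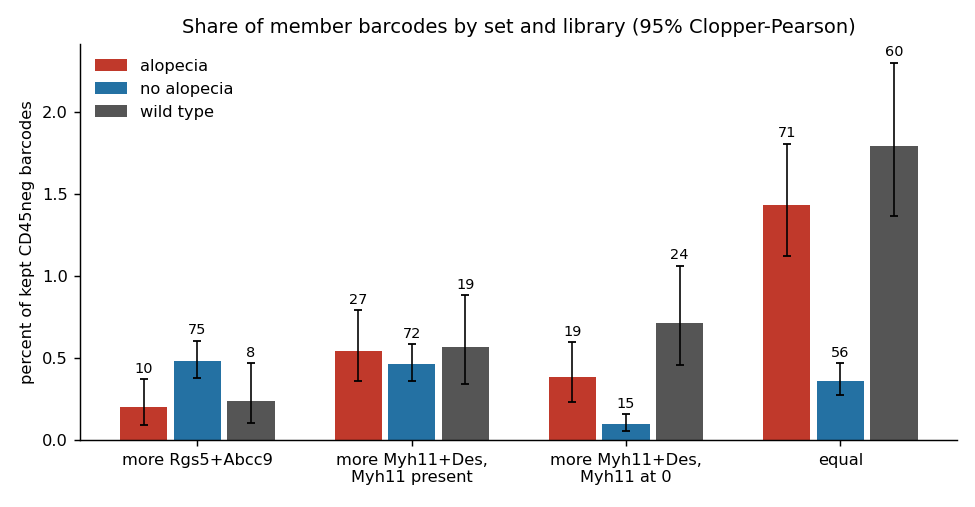
Share of member barcodes among kept CD45-negative barcodes, in percent, for each set and for the alopecia, no-alopecia and WT libraries from left to right. Bars are single libraries, whiskers are 95% Clopper-Pearson intervals that cover counting error only, and the numbers above them count barcodes; the Rgs5/Abcc9 bar is highest in no alopecia (0.484%) and the tied bars are high in alopecia and WT (1.43% and 1.79%).

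The 10 Rgs5/Abcc9 barcodes of alopecia carried more contractile RNA and almost none of the neutrophil chemokine RNA found in the 75 barcodes of no alopecia. The 2 sets also differed in make-up. Their first 12 genes by ratio to the other kept barcodes included the smooth muscle markers Lmod1, Myh11 and Acta2 in alopecia. In no alopecia they included the pericyte markers Higd1b, Cox4i2 and Vtn, and Rgs5 was among them in both. Itga8, an integrin gene, had a UMI in 5 of 10 alopecia and 3 of 75 no-alopecia barcodes. The part of make-up in the differences below was not tested. Cxcl1 and Cxcl2 encode chemokines that attract neutrophils through the receptor CXCR2, and Il6 encodes a cytokine of the acute phase. All 3 lie on chromosome 5, and the promoter windows below are shown because these cytokine genes were all lower in alopecia by the rule for naming genes and share a sequence motif. They span 250 bases before to 50 bases after the start of transcription in RefSeq's GRCm38.p6, the assembly whose names match the mm10 build of the counts, and each is printed on the plus strand, with the NF-kappaB consensus in capitals. Cxcl1 is at chr5:90890995-90891294, Cxcl2 at chr5:90903649-90903948 and Il6 at chr5:30012864-30013163.
Cxcl1: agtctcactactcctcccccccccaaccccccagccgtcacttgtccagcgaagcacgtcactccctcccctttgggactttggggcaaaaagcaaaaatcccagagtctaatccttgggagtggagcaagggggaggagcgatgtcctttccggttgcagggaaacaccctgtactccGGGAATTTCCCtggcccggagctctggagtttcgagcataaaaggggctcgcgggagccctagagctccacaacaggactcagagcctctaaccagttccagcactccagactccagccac
Cxcl2: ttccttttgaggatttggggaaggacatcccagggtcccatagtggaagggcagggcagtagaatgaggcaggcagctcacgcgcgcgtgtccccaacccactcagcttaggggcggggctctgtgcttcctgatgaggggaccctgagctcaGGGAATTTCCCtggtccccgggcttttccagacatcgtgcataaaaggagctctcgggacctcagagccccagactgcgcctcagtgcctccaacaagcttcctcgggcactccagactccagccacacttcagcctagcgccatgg
Il6: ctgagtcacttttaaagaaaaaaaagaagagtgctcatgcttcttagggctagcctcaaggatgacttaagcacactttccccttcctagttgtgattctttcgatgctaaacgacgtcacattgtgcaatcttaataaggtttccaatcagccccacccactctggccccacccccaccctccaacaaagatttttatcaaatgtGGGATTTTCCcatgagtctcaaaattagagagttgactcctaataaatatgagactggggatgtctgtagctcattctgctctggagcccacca
The capitals begin 71 bases before the start in Cxcl1, 97 bases before it in Cxcl2 and 44 bases before it in Il6. Of the 18 genes in the list of stromal cytokines and adhesion molecules, 11 had a promoter in the table, and 5 of these (Csf1, Cxcl1, Cxcl2, Il6 and Lif) held the consensus on either strand. Of all 32851 promoters 8.46% held it, which is a share of promoters and not of genes. The 3 windows printed were chosen in part for the motif, so their sharing it is not a result. A match describes the letters and does not show binding.

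The WT values of this side rest on few barcodes. In WT, 3 of the 8 held Abcc9 as their only rule gene, gave 76.0% of the side's UMIs and had at least 20 keratinocyte or fibroblast marker UMIs each. Markers of the dermal papilla and sheath stood at 105.5 CPM in alopecia, 25.5 CPM in no alopecia and 2313 CPM in WT. Their part in the comparisons with WT was not tested.

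Cxcl1 stood at 105.5 CPM in the alopecia Rgs5/Abcc9 barcodes (5 UMIs), 5642 CPM in no alopecia (1551 UMIs) and 1294 CPM in WT (75 UMIs). A UMI of Cxcl1 was seen in 2 of 10 barcodes in alopecia (exact 95% interval 2.52% to 55.6%), in 42 of 75 in no alopecia (56.0%, 44.1 to 67.4) and in 3 of 8 in WT (37.5%, 8.52 to 75.5). Among the kept barcodes that were not members Cxcl1 was seen in 254 of 4831 in alopecia, 1210 of 15266 in no alopecia and 248 of 3243 in WT, and the part of free RNA in this was not tested. These other barcodes had medians of 5662 UMIs in alopecia, 5767 in no alopecia and 4906 in WT. The Rgs5/Abcc9 barcodes had medians of 4509 UMIs in alopecia, 2630 in no alopecia and 3407 in WT, so Cxcl1 was seen most often in the shallowest of the 3 sets. The log2 ratio of alopecia to no alopecia was −5.74 (−7.37 to −4.52), that of alopecia to WT −3.62 (−5.28 to −2.33) and that of no alopecia to WT 2.12 (1.79 to 2.48). In all other kept barcodes the log2 ratio of alopecia to no alopecia was −0.55.

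Cxcl2 had no UMI in the alopecia barcodes, 1200 CPM in no alopecia from 14 of 75 barcodes, and 501 CPM in WT from 1 of 8 barcodes. Against a floor of 3 UMIs for the alopecia library its log2 ratio to no alopecia was at most −4.25, and 0 of 10 barcodes allows a share of up to 30.8% (Clopper-Pearson). Il6 stood at 190 CPM in alopecia (2 of 10 barcodes), 1230 CPM in no alopecia (34 of 75) and 570 CPM in WT (3 of 8), with a log2 ratio of alopecia to no alopecia of −2.69 (−3.84 to −1.75). Both levels were thus lower in alopecia than in no alopecia with UMIs counted as independent. The shares of barcodes with a UMI were not told apart for either gene, nor was that of Cxcl1, since the intervals overlapped. Ccl2, which encodes a monocyte chemokine, and Cxcl10, an interferon-induced T-cell chemokine, had UMIs in only 1 alopecia barcode each. Ccl2 had 949 CPM in alopecia from that barcode, 1659 CPM in no alopecia from 22 barcodes and 311 CPM in WT from 2. Cxcl10 had 1414 CPM in alopecia from that barcode, 466 CPM in no alopecia from 12 and 138 CPM in WT from 2.

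Genes of early activation followed the same direction. At 1.5-fold, 20 of the 26 measured genes of the immediate early and stress list (28 genes) were lower in alopecia than in no alopecia and none was higher, with a median log2 ratio of −1.27, against 31.9% of all 987 genes tested that were lower and a median of −0.93 for the same genes in the other kept barcodes. Nr4a1, an orphan nuclear receptor induced within minutes of a stimulus, had 232 CPM in alopecia, 1088 CPM in no alopecia and 760 CPM in WT. Egr1, a zinc-finger factor of the same response, had 1477 CPM in alopecia, 3012 CPM in no alopecia and 2399 CPM in WT. A lower level of these genes in alopecia than in no alopecia was thus present in the other CD45-negative barcodes too. Of the 7 measured genes of the interferon-gamma list (29 genes), 5 were lower and 1 higher in alopecia, with a median log2 ratio of −1.19 and of −0.43 in the other kept barcodes. Irf1, a transcription factor induced by interferon-gamma, had 274 CPM in alopecia, 888 CPM in no alopecia and 311 CPM in WT. Against WT, all 7 measured genes of that list were higher in no alopecia, with a median log2 ratio of 1.51, where 36.0% of all genes were higher. The WT level rests on 8 barcodes, of which the 3 with Abcc9 alone gave 76.0% of the UMIs. The list was not compared without them, so this ratio is not read as a response in no alopecia.

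Contractile genes ran the other way. Of the 12 measured genes of the smooth muscle contractile list (21 genes), 10 were higher in alopecia than in no alopecia and none was lower, with a median log2 ratio of 1.25 (0.13 in the other kept barcodes), against 20.9% of all genes that were higher. Acta2, smooth muscle alpha-actin, had 4790 CPM in alopecia, 1753 CPM in no alopecia and 432 CPM in WT, and 51.5% of its alopecia UMIs came from 1 barcode. Tagln, the actin-binding protein transgelin, had 2743 CPM in alopecia, 1110 CPM in no alopecia and 432 CPM in WT. At least 3 UMIs of these 2 genes were seen in 9 of 10 alopecia barcodes, 31 of 75 no-alopecia barcodes and 3 of 8 WT barcodes. Myh11, a rule gene that also sets the side, had a UMI in 9 of 10 alopecia barcodes, 41 of 75 no-alopecia barcodes and 3 of 8 WT barcodes, which describes the selection. By the Acta2 and Tagln counts, contractile RNA was thus seen in nearly all alopecia barcodes of this side and in a smaller part of the others. The alopecia barcodes were also the deepest, with a median of 4509 UMIs against 2630 in no alopecia and 3407 in WT. The part of depth in these counts was not tested. Fabp4, the fatty acid-binding protein of capillary endothelium and of some mural cells, had 4325 CPM in alopecia, 640 CPM in no alopecia and 104 CPM in WT, a log2 ratio of alopecia to no alopecia of 2.76 (2.46 to 3.06), and 205 UMIs spread over 7 alopecia barcodes. Endothelial markers stood at 316 CPM in alopecia, 131 CPM in no alopecia and 0 CPM in WT, with 2 of the 9 markers seen in alopecia, 3 in no alopecia and none in WT, and with Pecam1 and Cdh5 at 0 by the rule. Their part in the Fabp4 level was not tested.

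Markers of pericytes ran in both directions between alopecia and no alopecia. Kcnj8, the pore of the potassium channel whose regulatory subunit is Abcc9, had 42.2 CPM in alopecia from 2 of 10 barcodes, 364 CPM in no alopecia from 29 of 75 and 155 CPM in WT from 4 of 8. The log2 ratio of alopecia to no alopecia was −3.11 (−6.17 to −1.22), and it rested on 2 alopecia UMIs. Abcc9 or Kcnj8 was seen in 3 of 10 alopecia barcodes, 45 of 75 no-alopecia barcodes and 7 of 8 WT barcodes, among them the 3 in WT with Abcc9 alone. Pdgfrb, the receptor for the platelet-derived growth factor that recruits pericytes, had 570 CPM in alopecia, 509 CPM in no alopecia and 362 CPM in WT, with an interval of the log2 ratio of alopecia to no alopecia from −0.49 to 0.76. Rgs5, a rule gene, had 7321 CPM in alopecia, 2892 CPM in no alopecia and 967 CPM in WT. Over the pericyte list (15 genes, 12 measured) 3 genes were higher and 3 lower in alopecia than in no alopecia, with a median log2 ratio of 0.17. These shares were near those of all 987 genes tested, of which 20.9% were higher and 31.9% lower, so the list as a whole did not stand out. Rgs5 and Abcc9 chose these barcodes, so their levels and counts describe the selection, and 1 alopecia barcode held neither Acta2 nor Tagln.

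The comparisons on the Rgs5/Abcc9 side rest on 10 and 8 barcodes outside no alopecia and were added after the counts were seen. Of 987 genes with at least 50 UMIs over both libraries, 283 (28.7%) differed by at least 2-fold between alopecia and no alopecia, 36.6% of 290 between alopecia and WT, and 29.8% of 1020 between no alopecia and WT, a high background against which single genes are to be read. By the rule for naming genes, the highest in alopecia over no alopecia after Fabp4 were Zbtb16, a zinc-finger repressor (log2 ratio 2.39), Rcan2, a regulator of calcineurin (2.01), Angptl4, an inhibitor of lipoprotein lipase (2.24), Cacnb2, a subunit of voltage-gated calcium channels (2.27), Mgst3, a glutathione transferase (2.00), Slit3, a guidance ligand (2.01), and Acta2 (1.45). Among the lowest after Cxcl1 and Cxcl2 were Gem, a small GTPase (−3.14), Il6, and the epidermal genes Krt10, Krt1 and Mt4. Keratinocyte markers summed to 63 CPM in alopecia, 5973 CPM in no alopecia and 17 CPM in WT. Fibroblast markers summed to 211 CPM in alopecia, 749 CPM in no alopecia and 8458 CPM in WT. Leaving out barcodes with at least 20 UMIs of either list left 10 alopecia, 68 no-alopecia and 5 WT barcodes. In these, Cxcl1 had 105.5 CPM in alopecia, 7944 CPM in no alopecia and 2233 CPM in WT, and Il6 190 CPM in alopecia, 1628 CPM in no alopecia and 2377 CPM in WT. Rgs5 had 7321 CPM in alopecia, 3854 CPM in no alopecia and 4034 CPM in WT, and Acta2 4790 CPM in alopecia, 2318 CPM in no alopecia and 1801 CPM in WT. The direction of alopecia against no alopecia held for these 4 genes. Against WT, no alopecia was higher with all barcodes and lower without the marker-rich ones for Il6, for Cxcl2 (1700 CPM in no alopecia, 2089 CPM in WT), for Tagln (1530 CPM in no alopecia, 1729 CPM in WT) and for the rule gene Rgs5. Alopecia was higher than WT with all barcodes and lower without them for Isg15 (549 CPM in alopecia, 936.5 CPM in WT) and Rgs16 (654 CPM in alopecia, 1657 CPM in WT).

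**Figure D4:**
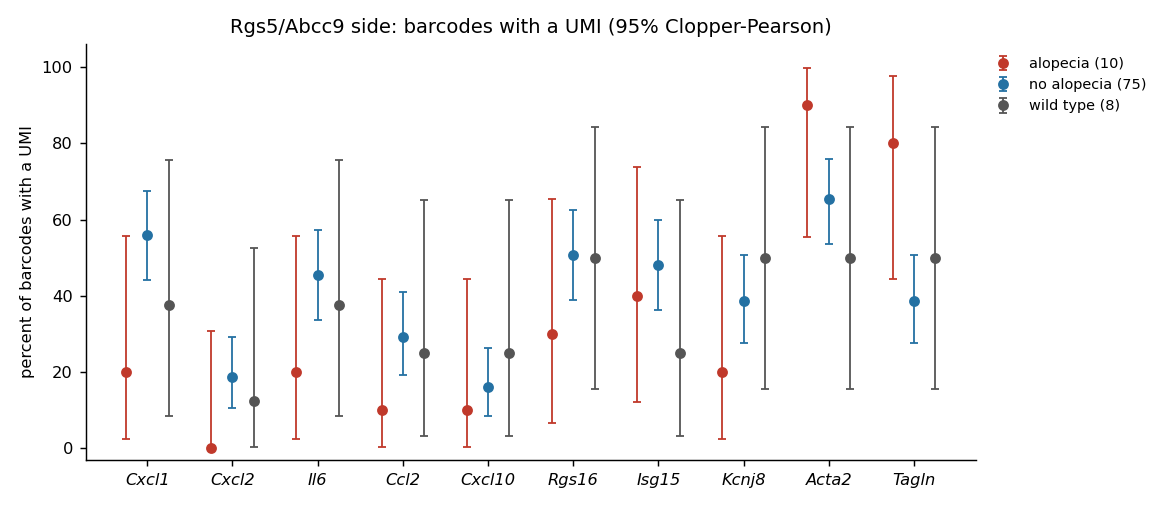
Percent of Rgs5/Abcc9 barcodes with a UMI of each gene, with 95% Clopper-Pearson intervals that cover counting error only, for alopecia (10 barcodes), no alopecia (75) and WT (8) from left to right. Cxcl1 was seen in 2 of 10, 42 of 75 and 3 of 8 barcodes, and the contractile genes Acta2 and Tagln were seen in a higher share of the alopecia barcodes, with intervals that overlap those of no alopecia.

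The Myh11-positive barcodes of the Myh11/Des side fell into those with Rgs5 and those without, and the gamma-2 actin of visceral and arrector pili muscle was seen mainly in those without. This split was chosen after the values were seen and gives a description. With Rgs5 there were 18 barcodes in alopecia, 37 in no alopecia and 9 in WT, and without it 9 in alopecia, 35 in no alopecia and 10 in WT. Actg2 (gamma-2 smooth muscle actin, chromosome 6, 83512905 to 83536265 on the minus strand of GRCm38) had a UMI in 1 alopecia, 2 no-alopecia and 1 WT barcode with Rgs5. Without Rgs5 it was seen in 4 of 9 alopecia barcodes (44.4%), 18 of 35 no-alopecia barcodes (51.4%) and 7 of 10 WT barcodes (70.0%). In kept barcodes that were not members it was seen in 11 of 4831 in alopecia, 30 of 15266 in no alopecia and 11 of 3243 in WT. Nrip2, a nuclear receptor-interacting protein, had 554 CPM in alopecia, 324 CPM in no alopecia and 271 CPM in WT with Rgs5, and without it 90.3 CPM in alopecia, 182 CPM in no alopecia and 0 CPM in WT. Notch3 had 927 CPM in alopecia, 911 CPM in no alopecia and 902 CPM in WT with Rgs5, and without it 647 CPM in alopecia, 289 CPM in no alopecia and 113 CPM in WT. Nrip2 was thus lower without Rgs5 in each library. Notch3 counts towards the rule as Rgs5 does, so its levels are a description of the barcodes chosen. Adra1a, the alpha-1A adrenergic receptor, had 30.2 CPM in alopecia, 6.90 CPM in no alopecia and 0 CPM in WT with Rgs5. Without it, Adra1a had 15.1 CPM in alopecia, 579 CPM in no alopecia and 744 CPM in WT, and 91.3% of the WT UMIs came from 1 barcode. In no alopecia and WT the Rgs5-negative barcodes were thus higher in Actg2 and Adra1a than the Rgs5-positive ones, and in alopecia Adra1a rested on few UMIs in both. Itga8, also on the arrector pili and visceral muscle list, did not follow this split in every library. With Rgs5 it was seen in 13 of 18 alopecia, 19 of 37 no-alopecia and 4 of 9 WT barcodes. Without Rgs5 it was seen in 1 of 9 alopecia, 20 of 35 no-alopecia and 8 of 10 WT barcodes, so in alopecia it ran the other way.

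In the barcodes with Rgs5, 7 of 15 measured contractile genes were at least 1.5-fold higher in alopecia than in no alopecia and none was lower. Acta2 had 8886 CPM in alopecia, 4975 CPM in no alopecia and 5459 CPM in WT, and Tagln 6508 CPM in alopecia, 4968 CPM in no alopecia and 5527 CPM in WT. Myl9, the regulatory light chain of smooth muscle myosin, had 3607 CPM in alopecia, 2298 CPM in no alopecia and 2391 CPM in WT. Acta2 and Myl9 passed 1.5-fold and Tagln did not. The median log2 ratio of the list was 0.39, against 13.1% of all 712 genes higher and 25.6% lower. With TMM scaling 5 of 15 were higher, without marker-rich barcodes 5 of 15, and with both 4 of 15, and none was lower in any of these. Of all genes, 9.55%, 11.6% and 7.58% were higher in these settings, in the same order. Isg15, an interferon-induced ubiquitin-like protein, had 90.7 CPM in alopecia, 662 CPM in no alopecia and 654 CPM in WT, with UMIs in 8 of 18 alopecia, 16 of 37 no-alopecia and 5 of 9 WT barcodes. The share of barcodes with an Isg15 UMI was thus similar while the level was lower in alopecia, and a single WT barcode held 65.5% of the WT UMIs.

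In the barcodes without Rgs5, most contractile genes were lower in alopecia. Acta2 had 5555 CPM in alopecia, 14994 CPM in no alopecia and 15743 CPM in WT. Tagln had 3071 CPM in alopecia, 9886 CPM in no alopecia and 6326 CPM in WT, and Myl9 1641 CPM in alopecia, 5687 CPM in no alopecia and 5339 CPM in WT. Actg2 had 271 CPM in alopecia, 934 CPM in no alopecia and 1521 CPM in WT. Each of these 4 levels was lowest in alopecia. Of 18 measured contractile genes, 16 were lower and 1 higher in alopecia than in no alopecia (median log2 ratio −1.62), against 32.5% of all 507 genes that were lower and 21.3% that were higher, and 13 of 15 were lower than in WT (median −1.69), against 29.3% of 341. No alopecia and WT differed little, with a median log2 ratio of 0.09 over 19 genes. Notch3, a rule gene through which barcodes could pass, was seen in 9 of 9 in alopecia, 10 of 35 in no alopecia and 3 of 10 in WT. Fabp4 was seen in 5 of 9 in alopecia, 9 of 35 in no alopecia and none of 10 in WT. Keratinocyte markers stood at 13819 CPM in alopecia, against 827 CPM in no alopecia and 48.5 CPM in WT. Without barcodes rich in keratinocyte or fibroblast markers, 5 alopecia, 32 no-alopecia and 10 WT barcodes were left. The median log2 ratio of alopecia to no alopecia was then −0.77 with 14 of 18 genes lower and 2 higher. Of all 363 genes 28.9% were lower and 19.3% higher. Acta2 had 12139 CPM in alopecia, 17174 CPM in no alopecia and 15743 CPM in WT. Against WT the median was −0.68 without them, with 8 of 15 genes lower and 2 higher, and Tagln had 6624 CPM in alopecia and 6326 CPM in WT. The median kept its direction at a smaller size in both comparisons, and the part of the marker RNA and of the mixture in it was not tested.

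Among the 21 contractile genes, 17 had a promoter in the RefSeq table, and 2 of these, Myl9 and Srf, held an exact CArG box, the element bound by serum response factor (its letters are CC, any 6 of A or T, GG), against 1.63% of all promoters. The Myl9 window is shown because Myl9 was among the genes higher in alopecia with Rgs5 and lower without it. It lies at chr2:156775214-156775513 of GRCm38.p6 on the plus strand, with the box in capitals 161 bases before the start. Absence of these exact letters from the window of another gene says nothing of its control.
Myl9: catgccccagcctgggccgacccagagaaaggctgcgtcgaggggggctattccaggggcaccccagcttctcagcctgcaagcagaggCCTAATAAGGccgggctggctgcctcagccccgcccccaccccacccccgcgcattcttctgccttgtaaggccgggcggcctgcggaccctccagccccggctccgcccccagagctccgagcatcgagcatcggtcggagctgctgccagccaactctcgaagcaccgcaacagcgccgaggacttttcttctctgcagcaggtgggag

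**Figure D5:**
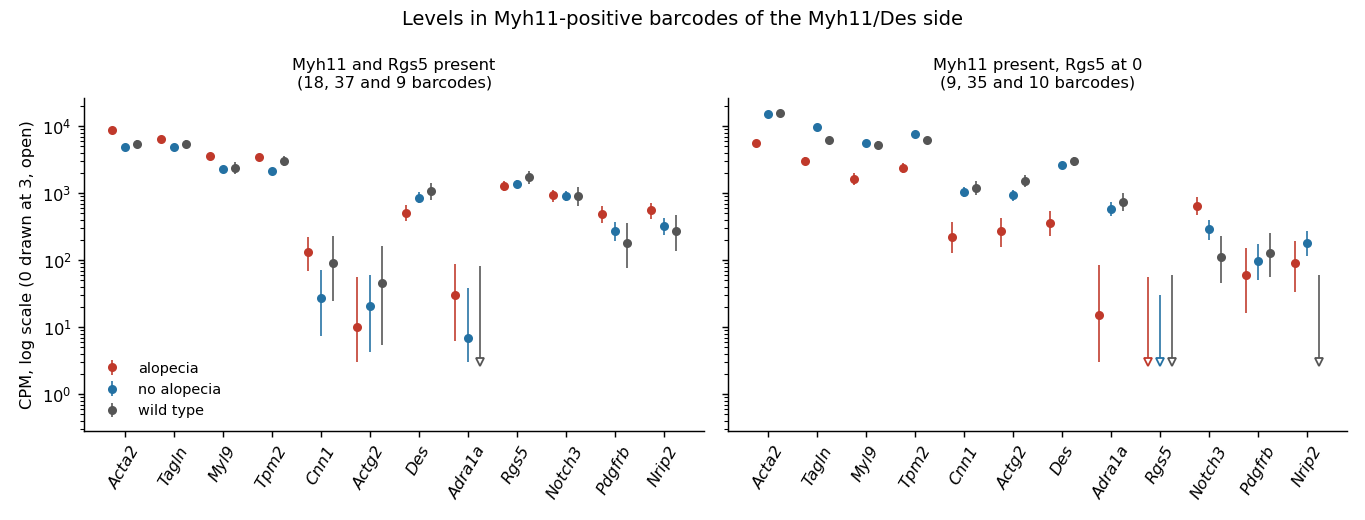
Levels in CPM, on a log scale, of contractile, receptor and mural genes in Myh11-positive barcodes with Rgs5 (left) and without it (right), for alopecia, no alopecia and WT from left to right at each gene. Points are summed UMIs of 1 library, whiskers are exact Poisson 95% intervals that cover counting error only, and open triangles at 3 stand for 0; Acta2 reads 8886, 4975 and 5459 CPM on the left and 5555, 14994 and 15743 CPM on the right.

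Over the whole Myh11/Des side, as the rule defines it, contractile genes were lower in alopecia than in no alopecia. Of 19 measured genes, 16 were lower and 1 (Sorbs2, log2 ratio 0.73) higher, with a median of −0.98, against 16.4% of all 2032 genes that were lower and a median of −0.11. Acta2 had 4317 CPM in alopecia, 7511 CPM in no alopecia and 4241 CPM in WT. Actg2 had 65.1 CPM in alopecia, 342 CPM in no alopecia and 335 CPM in WT, a log2 ratio of alopecia to no alopecia of −2.40 (−3.18 to −1.69). The same ratio was −2.10 for Smtn (smoothelin), −2.01 for Cnn1 (calponin) and −1.24 for Mylk (myosin light chain kinase). The mixture of barcodes differed, as 27 of 46 held Myh11 in alopecia, 72 of 87 in no alopecia and 19 of 43 in WT. Among Myh11-positive barcodes 8 of 19 genes were lower and 1 higher (median −0.55, 15.1% of all genes lower). Without marker-rich barcodes 4 of 19 were lower and 1 higher, with a median of −0.28. Of all 1038 genes in that setting 13.4% were lower and 12.7% higher, with a median of −0.07, so the list stood out little there. The median log2 ratio of no alopecia to WT was 0.85 over the whole side, with 15 of 19 genes higher against 25.6% of all, and −0.18 among Myh11-positive barcodes, so that its direction turned with the mixture.

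Over all genes, 171 of 2032 genes (8.42%) differed by at least 2-fold between alopecia and no alopecia on the Myh11/Des side, 62 higher (3.05%) and 109 lower (5.36%) (107 higher and 96 lower when barcodes were averaged with equal weight). It was 168 of 1751 (9.59%) for alopecia over WT and 359 of 1971 (18.2%) for no alopecia over WT, 223 higher (11.3%) and 136 lower (6.9%) (163 higher and 179 lower with TMM scaling, which moved the median of all genes by −0.14, and 168 higher and 164 lower with averaged barcodes). Enpp2, the secreted lysophospholipase autotaxin, had 47.9 CPM in alopecia from 7 barcodes, 552 CPM in no alopecia from 26 and 241 CPM in WT from 12, a log2 ratio of alopecia to no alopecia of −3.53 (−4.42 to −2.74), while in the other kept barcodes it was 1.30. Car4, a membrane carbonic anhydrase, had no UMI in alopecia, 148 CPM in no alopecia from 13 barcodes and 6.98 CPM in WT, a log2 ratio of at most −3.85 at the floor of 3 UMIs. Phlda1, a pleckstrin-homology protein, had 110 CPM in alopecia, 490 CPM in no alopecia and 363 CPM in WT (log2 ratio −2.16). Enpp2 and Car4 ran against the direction of the other CD45-negative barcodes, and Phlda1 had a log2 ratio of −0.65 there. Pcp4, a calmodulin-binding peptide of arrector pili and visceral muscle, had 13.7 CPM in alopecia from 1 barcode, 151 CPM in no alopecia from 12 and 45.3 CPM in WT from 1. Isg15 had 41.1 CPM in alopecia from 10 barcodes, 331 CPM in no alopecia from 24 and 129 CPM in WT from 9. Adra1a had 41.1 CPM in alopecia, 213 CPM in no alopecia and 178 CPM in WT. Dct, a melanocyte enzyme, was named by the rule through a single no-alopecia barcode.

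Higher in alopecia was Jarid2, a subunit of the Polycomb repressive complex that methylates histone H3, with 1294 CPM in alopecia, 283 CPM in no alopecia and 345 CPM in WT. Its log2 ratio of alopecia to no alopecia was 2.19 (1.86 to 2.53), 1.76 in the other kept barcodes, so the library difference was shared with them. Ccn1, a matricellular protein induced by stretch and by YAP, had 740 CPM in alopecia, 221 CPM in no alopecia and 572 CPM in WT, and was seen in 22 alopecia, 25 no-alopecia and 21 WT barcodes, with a log2 ratio of 1.74 (1.35 to 2.14), against −0.77 in the other kept barcodes. Tsc22d3, the glucocorticoid-induced leucine zipper, had 575 CPM in alopecia, 156 CPM in no alopecia and 380 CPM in WT (log2 ratio 1.88, and 1.05 in the others). Ccn1 thus ran against the direction of the other barcodes. Gpx3, the plasma glutathione peroxidase, had 472 CPM in alopecia, 23.6 CPM in no alopecia and 488 CPM in WT (log2 ratio of alopecia to no alopecia 4.32). Opcml, a cell adhesion molecule, had 147 CPM in alopecia, 23.6 CPM in no alopecia and 167 CPM in WT (2.64). For Gpx3 and Opcml alopecia was close to WT and no alopecia was low. C3, the complement component, had 377 CPM from 3 alopecia barcodes, 103 CPM from 5 no-alopecia barcodes and 13.9 CPM from 4 WT barcodes. Tnnc2, fast skeletal troponin C, had 209 CPM in alopecia, 98.4% of it from 1 barcode, and none in the other libraries, and the skeletal muscle markers of the Des barcodes without Myh11 stood at 2358 CPM in alopecia, 27 CPM in no alopecia and 111 CPM in WT. Olfr1033 had 199 CPM in alopecia from 8 barcodes, none in no alopecia and 66.3 CPM in WT.

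Against WT, chemokines of the Myh11/Des side were lower in both UP_Del libraries. Ccl2 had 158 CPM in alopecia and 174 CPM in no alopecia, against 938 CPM in WT, a log2 ratio to WT of −2.57 (−3.06 to −2.12) for alopecia and −2.43 for no alopecia. Ccl7, another monocyte chemokine, had 24.0 CPM in alopecia and 38.4 CPM in no alopecia, against 296 CPM in WT. These WT levels came from 10 barcodes for Ccl2 and 8 for Ccl7. Of the measured genes of the cytokine list, 7 of 11 were lower in alopecia than in WT (median log2 ratio −0.82, and −0.52 in the other kept barcodes) and 7 of 10 in no alopecia (median −0.87, and −0.27), where 12.5% and 14.3% of all genes were lower. Dkk2, an inhibitor of Wnt signalling made by dermal fibroblasts, had 54.8 CPM in alopecia and 41.3 CPM in no alopecia, against 408 CPM in WT. Fibroblast markers on this side stood at 13521 CPM in alopecia, 9371 CPM in no alopecia and 17108 CPM in WT, and their part in these 3 genes was not tested. In WT, the fibroblast-marker-rich Des barcodes without Myh11 had 642 CPM of Dkk2 and 759 CPM of Ccl2. Dkk2 was thus higher in them than over the whole WT side, and Ccl2 was lower. Higher than in WT were Rergl, a Ras-like GTPase, with 277 CPM in alopecia and 201 CPM in no alopecia, against 31.4 CPM in WT, and Sorbs2, an adaptor of the Z-band and of adhesions, with 401 CPM in alopecia and 242 CPM in no alopecia, against 55.8 CPM in WT. Avpr1a, the vasopressin receptor of vascular smooth muscle, had 68.5 CPM in alopecia and 207 CPM in no alopecia, against 13.9 CPM in WT from 2 barcodes.

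Other gene groups on the Myh11/Des side were closer between alopecia and no alopecia. Of the 26 measured immediate early genes, 2 were higher and 4 lower (median log2 ratio −0.20, and −0.93 in the other kept barcodes), against 9.74% higher and 16.4% lower among all genes. Of 10 measured genes of the basement membrane list (13 genes) none passed 1.5-fold, with a median of −0.04. Of 18 measured interstitial matrix genes (23 in the list) 3 were higher and 3 lower (median 0.34), and of 11 measured pericyte-list genes 3 were higher and 1 lower (median −0.06). Vasoactive receptors and channels had 9 of 28 genes measured, 4 lower and none higher (median −0.33), and the Notch list 4 of 12, none past 1.5-fold. The Il2 family had 3 of 16 genes measured and none past 1.5-fold, and the cell cycle list 1 of 16. Il15, a cytokine that sustains CD8 T cells and is studied in alopecia areata, had 4 UMIs in alopecia, 2 in no alopecia and 1 in WT over both sides. Cxcl12, the perivascular ligand of CXCR4, had 144 CPM in alopecia, 111 CPM in no alopecia and 241 CPM in WT over both sides. Cxcl10 had 239 CPM in alopecia, 217 CPM in no alopecia and 75.4 CPM in WT, also over both sides. Most of its alopecia and no-alopecia UMIs lay on the Rgs5/Abcc9 side (67, all from 1 barcode, and 128), which held 8 of its WT UMIs. The Cxcl10 values therefore do not describe the Myh11/Des side. At these counts the low genes of most lists could not be compared.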

How the data were processed

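The 6 libraries were deposited as count matrices of UMIs per gene and barcode, made with Cell Ranger 7.1.0 against mm10, per the submitters' processing notes. The 3 CD45-negative matrices (32285 genes) were used, and the deposited counts held 41014981 UMIs for alopecia, 116334373 for no alopecia and 25735064 for WT. Groups were taken from sample titles. The 5-gene rule, the gene lists and the named-gene rule were chosen with earlier results of these data known. Comparisons within the Rgs5/Abcc9 side, of Myh11-positive barcodes and of their Rgs5 split, and all settings without marker-rich or tied barcodes or on Rgs5 and Myh11 alone, were chosen after seeing the data.

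UMIs were summed over the barcodes of a set in each library and scaled to CPM. Cells are not replicates and each group had 1 library, so no p-value was computed: shares have Clopper-Pearson, levels exact Poisson and ratios exact conditional binomial 95% intervals, for counting error only. A gene was compared with at least 50 UMIs over both libraries, called at 2-fold, and counted within lists at 1.5-fold. A library at 0 was set to 3 UMIs and its ratio given as a bound. Named genes had at least 50 CPM in the higher library, at least the level of that library's other kept barcodes, and the highest interval bounds nearer to equality, up to 8 each way for alopecia over no alopecia and 4 for the comparisons with WT; mitochondrial, ribosomal, hemoglobin, antigen receptor, sex-linked and unnamed genes were left out. Not every gene that this rule names is reported here. Fewer than 30 barcodes a library was the limit for a planned gene comparison, which the Rgs5/Abcc9 side did not meet. Scrublet's automatic threshold called 1, 0 and 2 barcodes in alopecia, no alopecia and WT and so had not worked; no doublet was removed, and removal of the top scores at 0.4% per 1000 barcodes was an alternative. The ratio step was tested on simulated data. Python 3.11.15, scanpy 1.11.5, numpy 2.4.6, scipy 1.17.1, pandas 2.3.3 and matplotlib 3.10.9 were used.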

Additional observations from a re-analysis of the deposited data

How the results depend on the processing

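The 10 alopecia and 8 WT barcodes limit every value of the Rgs5/Abcc9 side. Its share ratio lay between 0.301 and 0.616 for alopecia over no alopecia and between 1.77 and 3.36 for no alopecia over WT. For alopecia over WT it lay between 0.677 and 1.69, on both sides of 1, as its counting interval allows. With 1 library a group, no setting replaces a replicate. The causes of the changes below were not tested, but another minimum of summed UMIs by construction changes which genes are compared. The settings without tied or marker-rich barcodes (at least 20 keratinocyte or fibroblast marker UMIs) with Myh11 present, or on Rgs5 and Myh11 alone were chosen after seeing the data. For all members, the share ratio of alopecia to no alopecia was 2.32 with at least 3 rule-gene UMIs, 1.17 with at least 6, 1.35 thinned to 1000 UMIs, 1.31 per kept barcode low in Krt5 and Krt14, 1.08 without tied barcodes and 0.937 without marker-rich barcodes. Per endothelial barcode it was 1.78 with at least 3 rule-gene UMIs, 0.895 with at least 6, 1.05 thinned, 0.822 without tied and 0.714 without marker-rich barcodes. Alopecia over WT, thinned, was 1.02 by share and 1.06 per endothelial barcode. No alopecia over WT was 0.687 by share and 0.893 per endothelial barcode with at least 6 UMIs, 0.753 and 1.01 thinned, 1.01 and 1.33 without marker-rich, 0.688 and 0.898 without tied barcodes, and 0.642 per low-keratin barcode. On the Myh11/Des side no alopecia over WT was 0.655 by share and 0.875 per endothelial barcode thinned, 0.662 per low-keratin barcode, and 0.821 by share and 1.07 per endothelial barcode with Myh11 present. With at least 4 UMIs of Rgs5 and Myh11 alone, the ratios for all members, by share and then per endothelial barcode, were 0.804 and 0.613 for alopecia over no alopecia, 1.095 and 1.089 for alopecia over WT, and 1.36 and 1.78 for no alopecia over WT. On the Myh11/Des side they were 1.12 and 0.852 for alopecia over no alopecia and 0.854 and 1.11 for no alopecia over WT.

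Counts of genes past 2-fold on the Myh11/Des side were 105 with at least 6 UMIs, 105 without marker-rich barcodes, 647 with a sum of at least 20 UMIs and 87 with at least 100 for alopecia over no alopecia. For alopecia over WT they were 101 without marker-rich barcodes, 652 with a sum of at least 20 UMIs, 71 with at least 100, and 109 with Myh11 present. For no alopecia over WT they were 140 thinned, 137 without marker-rich barcodes, 963 with a sum of at least 20, 179 with at least 100, and 99 with Myh11 present. For all members, alopecia over no alopecia gave 461 thinned, 290 without marker-rich barcodes, 1253 averaged over barcodes (729 higher and 524 lower, against 320 and 487), 1483 with a sum of at least 20, 439 with at least 100, and 307 without tied barcodes. Alopecia over WT gave 139 without marker-rich barcodes, 762 with a sum of at least 20 and 139 with at least 100. No alopecia over WT gave 282 thinned, 301 without marker-rich barcodes, 1423 averaged (630 higher and 793 lower, against 519 and 300), 1521 with a sum of at least 20 and 465 with at least 100. With Rgs5 and Myh11 alone, the counts for alopecia over no alopecia, alopecia over WT and no alopecia over WT were 107, 95 and 100 on the Myh11/Des side and 205, 113 and 283 for all members. Medians of no alopecia over WT changed sign with Myh11 present for the contractile (−0.18), arrector and visceral (−0.34, and −0.22 thinned), immediate early (−0.085) and interstitial matrix lists (0.14), and with Rgs5 and Myh11 alone for the contractile (−0.19) and arrector and visceral lists (−0.30). Of the other list medians on the Myh11/Des side under these settings, 519 moved by less than 1.5-fold and 41 by more. No paired analysis was possible because each group had 1 library.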
